A study of Mus musculus with 4 samples.

Results

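The genes of the major histocompatibility complex (MHC, named H2 in the mouse) and of peptide loading were compared between primary astrocytes of CD38 knockout (CD38 KO) and wild-type (WT) mice. The group holds every gene whose symbol starts with H2 and a hyphen, 45 in all, and 15 partner genes named one by one. Together these are 60 of the 55467 genes with a value in every library. By role they are 3 genes of classical class I (H2-K1, H2-D1 and its light chain B2m), 30 non-classical class I genes, 14 class II genes with their partners, and 12 genes of peptide supply and loading. The remaining gene, H2-Ke6, has an H2 name but encodes a hydroxysteroid dehydrogenase.

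The study sequenced 2 RNA libraries of CD38 KO and 2 of WT astrocytes. CD38 is a surface enzyme that breaks down NAD+. Both groups were cultures of cerebral cortex from pups 1 to 3 days old, grown for 14 days in medium with 10% serum, shaken for 12 h to remove loose cells, replated and collected 5 days later. Neither the strain of the mice nor the deleted part of Cd38 is stated in the labels. H2 genes are known to vary between mouse strains in sequence and in number, and in every comparison here loss of Cd38 and a strain difference cannot be told apart. The labels do not say whether the 2 libraries of a group came from separate animals or cultures, so p-values measure only the spread between these libraries, which may be technical.

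MHC class I molecules are a heavy chain paired with B2m, and show peptides from inside the cell to T cells and natural killer cells. Proteasomes cut the peptides, the transporter Tap1-Tap2 carries them into the endoplasmic reticulum, and tapasin, calreticulin and the trimming enzyme Erap1 fit them to the heavy chain. Class II molecules are pairs of an alpha and a beta chain that carry peptides taken up from outside. The invariant chain Cd74 escorts them and H2-DM exchanges their peptide. In the brain, microglia and other macrophages are the main class II cells, while resting astrocytes hold little class II and gain it with interferon gamma.

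The values are FPKM, fragments scaled to transcript length and library size, and depth was estimated at 29059325 and 29084029 fragments in CD38 KO and 26833187 and 28282385 in WT. Cd38 was at 0.0222 and 0.0222 FPKM in CD38 KO and at 3.13 and 3.46 FPKM in WT, so each library carried the Cd38 level of its label. The astrocyte markers were high in all libraries, with a summed 3081 and 3053 FPKM over 10 genes in CD38 KO and 3515 and 3449 FPKM in WT. Of these 10 genes 6 were called lower and 2 higher in CD38 KO (calls as defined below), with a median log2 change of -0.27. Over all 13064 tested genes 14.4% were called, 8% higher and 6.35% lower. Markers of the macrophage lineage differed too. All 18 tested of 20 microglia and macrophage markers were called higher in CD38 KO. The list summed to 977 and 871 FPKM in CD38 KO and 189 and 175 FPKM in WT. Of the 18, Cx3cr1, Itgam and Tmem119 reached the level for testing through CD38 KO only, with WT means of 0.527, 0.844 and 0.494 FPKM. For them, being tested and being higher are not independent. P2ry12 and Mrc1, too low to test, reached at most 0.633 FPKM. Dendritic cell markers summed to 2.18 and 2.26 FPKM in CD38 KO and 1.88 and 2.31 FPKM in WT, with Cd209a and Siglech listed at 0 throughout. Most of that sum came from Zbtb46, at 1.93 and 1.90 FPKM in CD38 KO and 1.59 and 2.195 FPKM in WT. B cell markers summed to 5.96 and 5.41 FPKM in CD38 KO and 0.853 and 0.520 FPKM in WT, most of it from Ighm. Cd79b, too low to test, had 1.445 and 1.005 FPKM in CD38 KO and 0.2535 and 0.03449 FPKM in WT, while Ms4a1 reached at most 0.0143 FPKM. Of the T and natural killer cell markers, Cd3e, Cd3g and Ncr1 were listed at 0 in all libraries. In bulk RNA, fewer cells of a type and less RNA per cell cannot be told apart.

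Of the 60 genes, 35 reached a mean of 1 FPKM over the 4 libraries and were tested with limma on log2(FPKM + 1), with Benjamini-Hochberg adjustment over all 13064 tested genes of the series. Changes on this scale understate those of low genes. A gene is called when its adjusted p is under 0.05. Among the 35, 7 were called higher and 6 lower in CD38 KO, 37.1% in all; over all tested genes 14.4% were called, 8% higher and 6.35% lower. Both CD38 KO values lay above both WT values for 12 members and below them for 13; over all tested genes 30.4% lay above and 29.5% below, 59.9% together. An unadjusted p under 0.05 was found for 24 of the 35, against 30.3% of all tested genes. The median log2 change was 0.02 over the 35 and 0.00 over all tested genes. The 35 were chosen by level, and H2-DMb2 and H2-T3 among them reached the limit through 1 genotype only. Of the 13 calls, those of H2-Ab1, H2-Q2, H2-T3 and Calr remained whichever library was dropped, and those of H2-Ke6, H2-DMb2, H2-Q7 and H2-T-ps remained in none of these 4 fits. The share of all genes called was 4.19% without CD38 KO 1, 4.34% without CD38 KO 2, 5.68% without WT 1 and 5.04% without WT 2. With no filter on level it was 2.78% and 1 member was called higher, H2-Ab1, and with a filter at 5 FPKM it was 15.8%.

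The classical class I heavy chains were higher in CD38 KO. H2-K1 (chromosome 17, 33996017 to 34000347, GRCm38) had 645 and 569 FPKM in CD38 KO libraries, against 345 and 399.8 FPKM in WT libraries. The groups did not overlap, and the means were 607 ± 53.8 FPKM in CD38 KO and 372 ± 38.9 FPKM in WT (SD, n = 2 each), a 1.63-fold difference. The limma log2 change was 0.70 (SE 0.09, adjusted p = 0.00729). H2-D1 (chromosome 17, 35262730 to 35267499) had 356 and 304 FPKM in CD38 KO and 215 and 237 FPKM in WT. Its log2 change was 0.54 (SE 0.09, adjusted p = 0.015). H2-K1 lost its call with CD38 KO 1 dropped (adjusted p = 0.0868) or CD38 KO 2 dropped (0.0555), and H2-D1 without CD38 KO 1 (0.0916), WT 1 (0.0953) or WT 2 (0.065).

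The light chain B2m, which every class I heavy chain needs to reach the surface, was at 769 and 682 FPKM in CD38 KO, against 584 and 629 FPKM in WT. Both CD38 KO values lay above both WT values, but the change was not called (log2 change 0.26, SE 0.07, adjusted p = 0.0699). Per library, B2m stood at 0.769 and 0.782 times the sum of H2-K1 and H2-D1 in CD38 KO, and at 1.04 and 0.988 times that sum in WT. Against the sum of all class I heavy chain genes, B2m stood at 0.663 and 0.673 times in CD38 KO and at 0.844 and 0.802 times in WT, so the heavy chains together were the larger side in all 4 libraries. H2-K1 was the more abundant of the classical pair in all libraries, at 1.81 and 1.87 times H2-D1 in CD38 KO and 1.61 and 1.69 times in WT. Beside these class I results stands the microglia and macrophage marker sum given above, 977 and 871 FPKM in CD38 KO and 189 and 175 FPKM in WT, whose part in them was not tested.

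**Figure D1:**
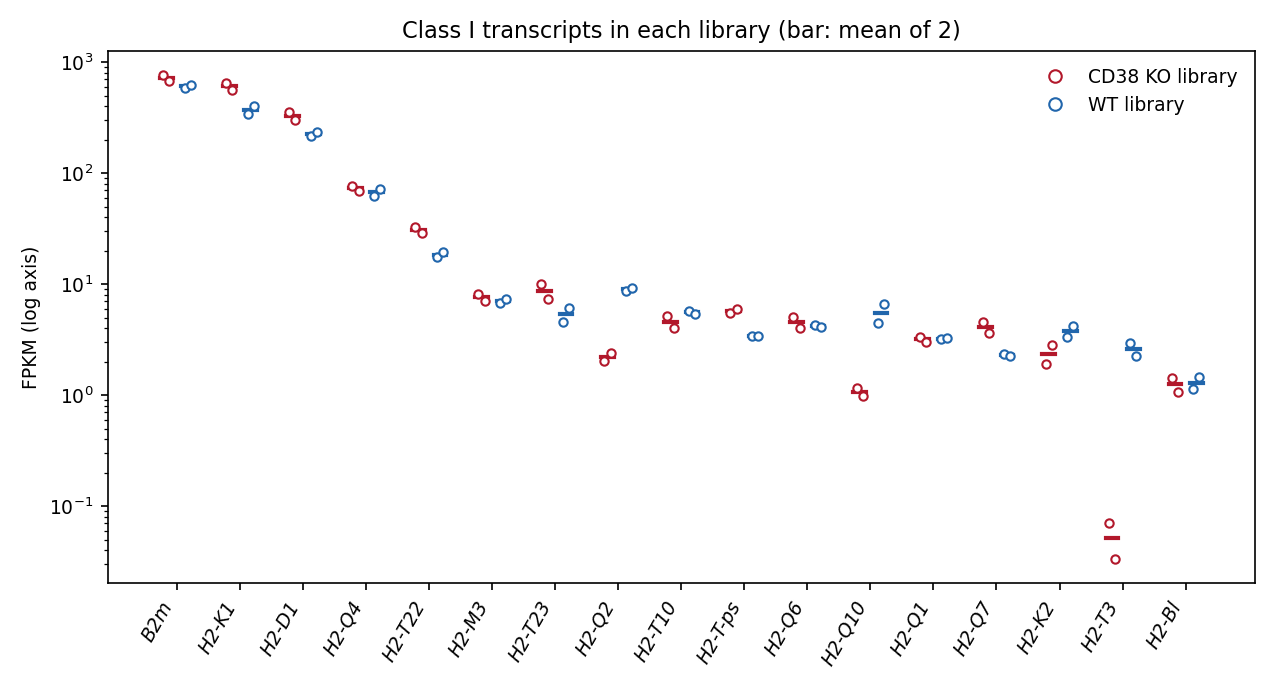
FPKM (log axis) of B2m and the 16 tested class I heavy chain genes and pseudogenes in each CD38 KO library (left of each pair) and WT library, with the mean of 2 libraries as a bar. H2-K1 and H2-D1 lie above their WT values, H2-Q2, H2-Q10 and H2-T3 below, and H2-Q4, H2-M3, H2-Q6, H2-Q1 and H2-Bl overlap.

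The non-classical class I genes went both ways. Of 14 tested, H2-T22, H2-Q7 and the pseudogene H2-T-ps were called higher, H2-T3, H2-Q2 and H2-Q10 lower, and 8 were not called, with a median log2 change of 0.03. The share called was 42.9%, beside 14.4% of all tested genes, 8% higher and 6.35% lower. In each library these genes made up a small share of class I heavy chain FPKM, 13.8% and 14.0% in CD38 KO and 19.1% and 18.8% in WT.

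H2-T22, a non-classical molecule recognised by gamma delta T cells, had 32.7 and 28.9 FPKM in CD38 KO, against 17.5 and 19.6 FPKM in WT. The groups did not overlap, and the log2 change was 0.70 (SE 0.09, adjusted p = 0.00568), a call lost without CD38 KO 1 (0.0704). Its near copy H2-T10, also seen by gamma delta T cells, is annotated as a polymorphic pseudogene. H2-T10 had its lower values in CD38 KO, at 5.16 and 4.05 FPKM in CD38 KO and 5.72 and 5.44 FPKM in WT, and was not called (log2 change -0.24, adjusted p = 0.24). H2-T22 thus stood at 6.34 and 7.14 times H2-T10 in CD38 KO and at 3.05 and 3.60 times in WT. H2-T23, which encodes Qa-1, a ligand of inhibitory receptors on natural killer cells, had 9.98 and 7.36 FPKM in CD38 KO and 4.59 and 6.11 FPKM in WT. It was not called (log2 change 0.60, SE 0.17, adjusted p = 0.0743), although the groups did not overlap.

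Of the Qa-2 genes, H2-Q7 was called and H2-Q6 was not, and the difference between their changes was not tested. H2-Q7 had 4.61 and 3.62 FPKM in CD38 KO, against 2.36 and 2.24 FPKM in WT (log2 change 0.63, SE 0.13, adjusted p = 0.0287), but no call remained when any 1 library was left out (adjusted p up to 0.144). H2-Q6 overlapped between the groups, at 5.03 and 4.07 FPKM in CD38 KO and 4.33 and 4.14 FPKM in WT. H2-T-ps had 5.52 and 6.01 FPKM in CD38 KO and 3.39 and 3.39 FPKM in WT (log2 change 0.62, adjusted p = 0.00903), and it too lost its call whichever library was dropped (largest adjusted p = 0.0795).

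H2-T3, H2-Q2 and H2-Q10 were the non-classical genes that fell. H2-T3 (chromosome 17, 36185572 to 36190287), which encodes the thymus leukaemia antigen known from gut epithelium and thymus, was near 0 in CD38 KO, at 0.0704 and 0.0333 FPKM, against 2.94 and 2.24 FPKM in WT. Its log2 change was -1.77 (SE 0.16, adjusted p = 0.00214). For an H2-T3 transcript of 1200 bases these values stand for about 2.11 and 0.999 fragments in CD38 KO and 81.7 and 65.3 in WT, and for one of 2312 bases for about 4.38 and 2.08 fragments in CD38 KO and 170 and 136 in WT. At the shorter length the level was 51.7-fold lower in CD38 KO, with a 95% interval of 17.3 to 254 (exact Clopper-Pearson, libraries of a group pooled, counting error only). H2-T3 passed the filter on level through WT only, and the interval rests on the same values as its call, so it adds no separate evidence. H2-Q2 had 2.05 and 2.39 FPKM in CD38 KO, against 8.77 and 9.26 FPKM in WT, a 4.06-fold lower mean (log2 change -1.64, SE 0.09, adjusted p = 0.000384). H2-Q10, in the mouse a secreted class I molecule made mainly by liver, had 1.17 and 0.976 FPKM in CD38 KO, against 4.48 and 6.60 FPKM in WT (log2 change -1.64, SE 0.18, adjusted p = 0.00381). The calls of H2-T3 and H2-Q2 remained whichever library was dropped, whereas H2-Q10 was no longer called with either CD38 KO library dropped (adjusted p = 0.0609 and 0.0662).

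The other tested non-classical genes were not called. H2-Q4, the third most abundant heavy chain, had 77.3 and 69.2 FPKM in CD38 KO and 63.0 and 71.5 FPKM in WT. H2-M3, which presents peptides with a formylated methionine, had 8.09 and 7.12 FPKM in CD38 KO and 6.83 and 7.39 FPKM in WT. H2-Q1 had 3.38 and 3.02 FPKM in CD38 KO and 3.21 and 3.25 FPKM in WT. H2-Bl, annotated as a polymorphic pseudogene, had 1.44 and 1.07 FPKM in CD38 KO and 1.14 and 1.45 FPKM in WT. These 4 overlapped between the genotypes. The pseudogene H2-K2 had 1.91 and 2.81 FPKM in CD38 KO and 3.37 and 4.21 FPKM in WT, without overlap (log2 change -0.52, SE 0.17, adjusted p = 0.101). Of the 16 non-classical genes too low to test, H2-T24 alone passed 0.5 FPKM in a library, with 0.821 and 0.512 FPKM in CD38 KO and 0.333 and 0.510 FPKM in WT. The other low ones are mostly of the H2-M series, known in the mouse from the vomeronasal organ, and 9 of the 16 were listed at 0 in every library.

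Class I genes are close copies of each other, so fragments can be assigned to the wrong one. In the GENCODE M21 transcripts, 9.63% of the 50-base words of H2-K1 and 12.8% of those of H2-D1 also occur in transcripts of another gene, on either strand. For H2-T22 this share was 53.5% and for H2-T10 50.4%, mostly with each other and with antisense transcripts that overlap them. H2-Q4 shared 36.4%, H2-Q7 26.5%, H2-Q6 35.0%, H2-T-ps 29.4%, H2-Q10 19.1% and H2-Q2 16.1%, against 0.926% for H2-T3 and 0.576% for H2-M3. Values of H2-T22, H2-T10, H2-Q4, H2-Q6, H2-Q7, H2-Q10 and H2-T-ps are therefore uncertain as to which copy they measure. This doubt extends, at smaller shares, to H2-Q2, which has 12.9% of its words in common with H2-Q1. It extends also to H2-Q1 (15% shared), H2-T23 (14.5%), H2-D1, H2-K1, H2-Bl (9.55%) and H2-K2 (9.38%). By contrast, H2-T3 has few words in common with any other gene. The libraries kept the strand, but the strand setting of the counting is not stated, so the opposite-strand transcript A930015D03Rik, at 9.24 and 8.64 FPKM in CD38 KO and 9.58 and 7.76 FPKM in WT, cannot be separated from the genes it overlaps, H2-T22, H2-T23 and H2-T24. The same holds for BC023719, which overlaps H2-T10 and H2-T-ps on the opposite strand and holds 24.9% of the words of H2-T10. BC023719 had 4.32 and 4.68 FPKM in CD38 KO, against 10.5 and 7.65 FPKM in WT, and was called lower (log2 change -0.86, adjusted p = 0.0167). Its part in the H2-T10 and H2-T-ps values, and in the ratio of H2-T22 to H2-T10, was not tested.

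**Figure D2:**
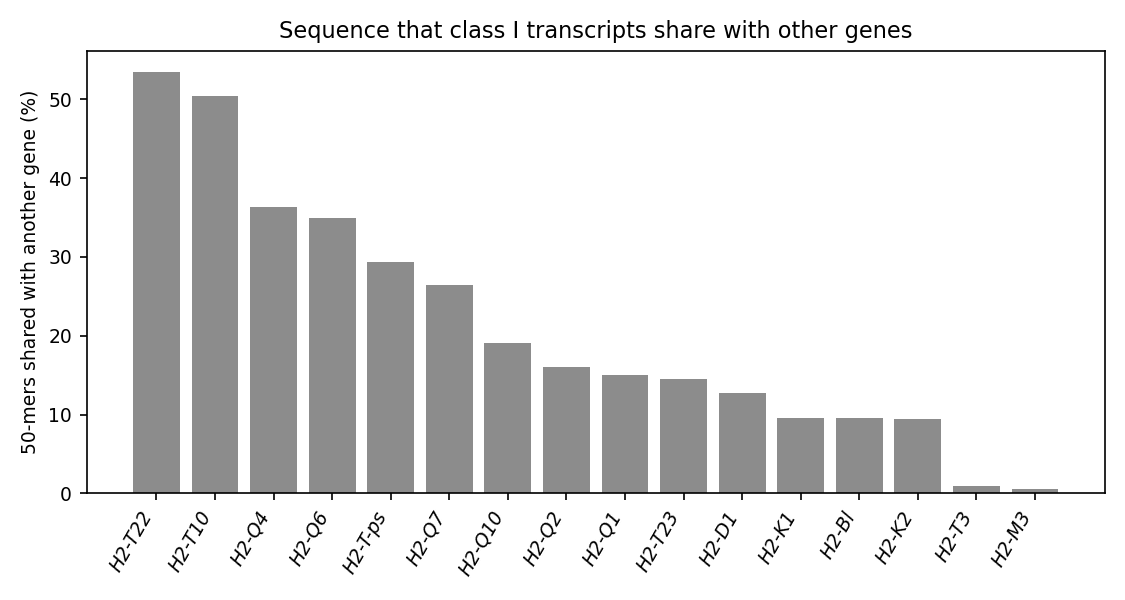
Percent of the 50-base words of each tested class I heavy chain gene that also occur in transcripts of another gene (GENCODE M21, either strand). H2-T22 at 53.5% and H2-T10 at 50.4% share most, and H2-T3 at 0.926% and H2-M3 at 0.576% least.

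Promoters of class I genes that were higher (H2-K1, H2-D1, H2-T22), lower (H2-Q10, H2-Q2) or not called (H2-Q4) are shown because close copies went in different directions. The RefSeq promoter table (GRCm38.p6) held windows for 42 of the 60 genes, each from 250 bases before to 50 after the start. The stretches below are the 200 bases before the start, 5′ to 3′ on the gene's strand. Capitals mark 4 motifs searched on both strands: GGGATTCCC, the core of the NF-kB site of class I promoters; GAAGTGAAA and GAAANNGAA, forms of the interferon-stimulated response element; and CCAAT. Among the windows of the members they overlapped once, GAAANNGAA with itself in Erap1.
H2-K1: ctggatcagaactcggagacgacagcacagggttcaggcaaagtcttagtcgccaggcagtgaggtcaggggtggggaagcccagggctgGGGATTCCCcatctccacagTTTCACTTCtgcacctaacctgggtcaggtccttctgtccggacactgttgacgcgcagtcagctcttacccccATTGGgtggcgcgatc
H2-D1: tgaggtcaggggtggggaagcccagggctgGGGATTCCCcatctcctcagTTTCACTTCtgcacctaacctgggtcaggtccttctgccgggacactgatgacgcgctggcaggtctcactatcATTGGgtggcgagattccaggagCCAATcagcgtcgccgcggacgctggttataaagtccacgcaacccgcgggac
H2-Q4: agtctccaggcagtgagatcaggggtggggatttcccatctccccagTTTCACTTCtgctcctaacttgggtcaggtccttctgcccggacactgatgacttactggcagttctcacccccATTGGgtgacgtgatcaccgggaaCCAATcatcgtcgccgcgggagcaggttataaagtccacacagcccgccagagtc
H2-Q10: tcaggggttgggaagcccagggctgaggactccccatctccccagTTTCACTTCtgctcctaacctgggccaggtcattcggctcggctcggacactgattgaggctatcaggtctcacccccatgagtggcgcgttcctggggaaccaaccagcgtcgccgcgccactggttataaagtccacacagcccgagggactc
H2-Q2: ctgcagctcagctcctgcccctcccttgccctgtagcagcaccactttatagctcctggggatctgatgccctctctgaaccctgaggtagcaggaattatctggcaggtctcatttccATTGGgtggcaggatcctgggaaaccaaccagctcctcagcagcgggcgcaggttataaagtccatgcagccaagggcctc
H2-T22: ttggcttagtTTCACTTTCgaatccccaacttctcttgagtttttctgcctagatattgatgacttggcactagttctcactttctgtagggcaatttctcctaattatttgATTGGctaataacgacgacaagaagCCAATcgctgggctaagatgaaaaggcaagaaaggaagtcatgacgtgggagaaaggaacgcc
H2-K1 is on the minus strand at chr17:34000348-34000547 and H2-T22 on the minus strand at chr17:36042743-36042942. The others are on the plus strand, H2-D1 at chr17:35262894-35263093, H2-Q4 at chr17:35379417-35379616, H2-Q10 at chr17:35469889-35470088 and H2-Q2 at chr17:35342107-35342306. In the full windows, GGGATTCCC stood in 3 of 5 called-higher class I heavy chain genes with a window (H2-K1, H2-D1 and H2-Q7), in 0 of 3 called lower and in 1 of 4 not called (H2-Q6). Over all 32851 promoter windows of this length 0.353% hold it. GAAGTGAAA stood in 3 of the 5 higher, 1 of the 3 lower and 3 of the 4 not called, against 0.505% of all windows. GAAANNGAA stood in the windows of H2-T22, H2-T23, B2m, Erap1 and Psme1 among the 42, against 8.56% of all windows, and CCAAT in 33 of the 42, against 37.4%. In H2-K1, H2-D1 and H2-Q7, called higher, and in H2-Q6, not called, the GGGATTCCC and GAAGTGAAA matches lie close together on opposite strands. H2-Q4 and H2-Q10 hold the GAAGTGAAA match alone of this pair. The search took exact letters, and before this match H2-Q4 reads gggatttccc and H2-Q10 aggactccc. The counts of GGGATTCCC therefore do not show that a gene lacks a variant of this site. These are matches of letters in the reference genome and say nothing of the factors that may bind.

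Class II transcripts were low in all libraries, and 1 beta chain stood out. H2-Ab1 (chromosome 17, 34257689 to 34269419), the beta chain of the class II molecule I-A, had 6.87 and 6.16 FPKM in CD38 KO, against 2.38 and 2.41 FPKM in WT. The groups were far apart, the fold difference was 2.72 and the log2 change 1.15 (SE 0.09, adjusted p = 0.00141), called in each of the 4 fits without 1 library. Its partner H2-Aa, the alpha chain of I-A, was too low to test, at 0.424 and 0.287 FPKM in CD38 KO and 0.398 and 0.665 FPKM in WT. H2-Ab1 thus stood at 16.2 and 21.5 times H2-Aa in CD38 KO and at 5.96 and 3.63 times in WT. H2-Eb1, the beta chain of I-E, was also under the limit, at 0.933 and 0.772 FPKM in CD38 KO and 0.936 and 0.936 FPKM in WT, with CD38 KO 1 close to both WT libraries.

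The invariant chain Cd74 was not called. Cd74 had 1.59 and 2.29 FPKM in CD38 KO and 3.04 and 2.86 FPKM in WT, both CD38 KO values below both of WT (log2 change -0.43, SE 0.15, adjusted p = 0.11). Cd74 stood at 0.232 and 0.372 times H2-Ab1 in CD38 KO and at 1.28 and 1.19 times in WT. Ciita, the master regulator of class II genes, was at 0.0567 and 0.0808 FPKM in CD38 KO and 0.0765 and 0.404 FPKM in WT.

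The H2-DM chains, which edit the class II peptide, were mixed. H2-DMb2 had 1.32 and 1.64 FPKM in CD38 KO, against 0.681 and 0.423 FPKM in WT (log2 change 0.68, SE 0.16, adjusted p = 0.0478). It passed the threshold narrowly, and its call ended without any 1 library (adjusted p up to 0.155) and with 0.1 FPKM or 0.5 FPKM added before the log (0.0595 and 0.051). Its copy H2-DMb1 had 3.01 and 3.06 FPKM in CD38 KO and 2.52 and 1.83 FPKM in WT and was not called (log2 change 0.35, adjusted p = 0.151). The alpha chain H2-DMa overlapped, at 9.23 and 8.36 FPKM in CD38 KO and 8.38 and 9.85 FPKM in WT. Brd2 lies over part of H2-DMa on the opposite strand, at 105 and 106 FPKM in CD38 KO and 113 and 111 FPKM in WT. It holds 8.43% of the 50-base words of H2-DMa, and its part in the H2-DMa values was not tested. H2-DMb1 and H2-DMb2 share 22.7% and 21.2% of their 50-base words with each other. H2-Oa and H2-Ob, which restrain H2-DM, reached at most 0.211 and 0.247 FPKM, and 3 of the 14 class II genes were listed at 0 in all.

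The class II levels were set against the summed microglia and macrophage markers of the same library. H2-Ab1 was at 0.00704 and 0.00708 times that sum in CD38 KO and at 0.0126 and 0.0138 times in WT. Cd74 was at 0.00163 and 0.00263 times the sum in CD38 KO and at 0.0161 and 0.0164 times in WT. The marker sum thus differed by a larger factor than H2-Ab1, while Cd74, not called, had its lower values in CD38 KO. Whether macrophage-lineage cells or astrocytes held the H2-Ab1 transcripts was not tested.

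**Figure D3:**
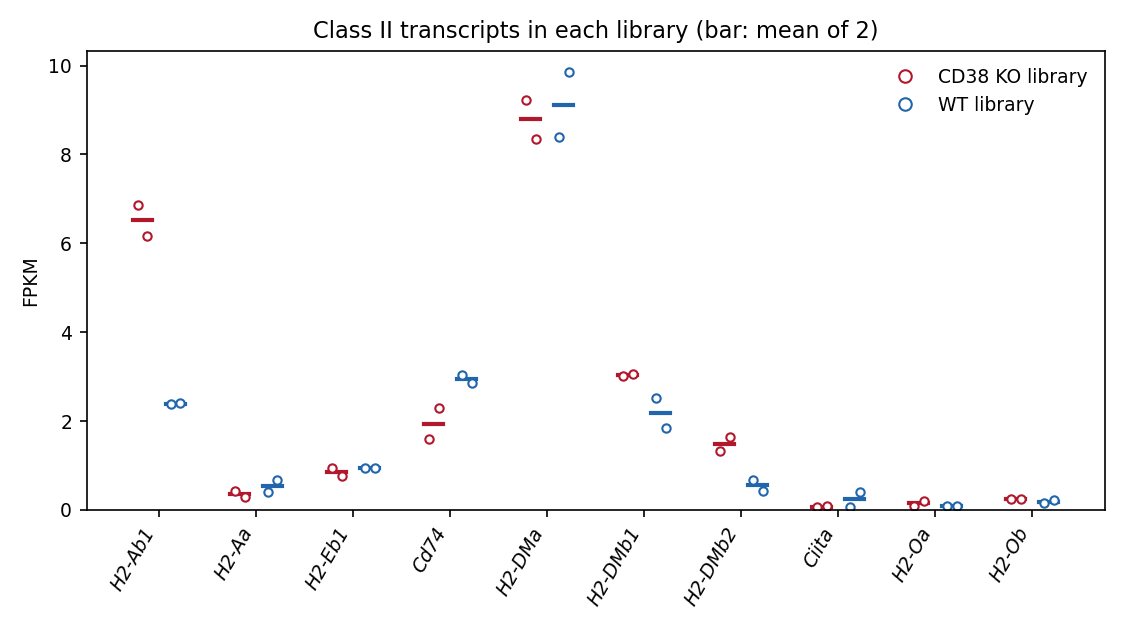
FPKM of 10 class II genes and partners in each CD38 KO library (left of each pair) and WT library, with the mean of 2 libraries as a bar. H2-Ab1 is at 6.87 and 6.16 FPKM in CD38 KO and 2.38 and 2.41 FPKM in WT, whereas H2-Aa and H2-DMa overlap and Cd74 has its lower values in CD38 KO.

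Among the 12 genes that make and load class I peptides, all tested, limma called Calr and Tap2 lower and 0 higher. The share called was 16.7%, close to the 14.4% of all tested genes, of which 8% were called higher and 6.35% lower. An unadjusted p under 0.05 was found for 8 of the 12, against 30.3% of all tested genes, and the median log2 change was -0.12, against 0.00. Calreticulin (Calr, chromosome 8, 84841850 to 84846934), the chaperone that holds the empty heavy chain, had 355 and 356 FPKM in CD38 KO, against 485 and 495 FPKM in WT. The spread within each genotype was small, with means of 356 ± 1.18 FPKM in CD38 KO and 490.3 ± 6.87 FPKM in WT (SD, n = 2 each). The log2 change was -0.46 (SE 0.04, adjusted p = 0.0015) and was called in each of the 4 fits without 1 library. Tap2, a subunit of the peptide transporter, had 49.2 and 47.7 FPKM in CD38 KO, against 63.3 and 64.8 FPKM in WT (log2 change -0.40, SE 0.05, adjusted p = 0.00468), a call that ended without CD38 KO 2 (adjusted p = 0.0565).

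The other subunit of the transporter was not called. Tap1 had 30.7 and 30.4 FPKM in CD38 KO and 27.8 and 26.9 FPKM in WT, without overlap (log2 change 0.15, SE 0.05, adjusted p = 0.101). Tap1 therefore stood at 0.624 and 0.638 times Tap2 in CD38 KO and at 0.440 and 0.415 times in WT. Tapasin (Tapbp), which bridges the transporter and the heavy chain, had 55.8 and 48.9 FPKM in CD38 KO and 63.0 and 63.5 FPKM in WT (log2 change -0.27, SE 0.07, adjusted p = 0.0589). Its relative Tapbpl, a peptide editor, had 6.18 and 5.86 FPKM in CD38 KO and 7.35 and 7.18 FPKM in WT (log2 change -0.24, adjusted p = 0.0936). Neither was called, though in both the CD38 KO values lay below those of WT. Erap1 overlapped, at 33.0 and 24.1 FPKM in CD38 KO and 29.8 and 30.1 FPKM in WT.

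None of the immunoproteasome subunits, which interferon induces, was called. Psmb8 had 67.9 and 60.3 FPKM in CD38 KO and 58.7 and 67.6 FPKM in WT, and Psmb9 20.8 and 18.6 FPKM in CD38 KO and 18.8 and 18.2 FPKM in WT. Both overlapped. Psmb10 had 42.6 and 39.5 FPKM in CD38 KO and 45.7 and 45.9 FPKM in WT and was not called (log2 change -0.16, adjusted p = 0.118). Against the constitutive subunits that they replace, Psmb8 stood at 1.07 and 1.01 times Psmb5 in CD38 KO and 0.971 and 1.14 times in WT. Psmb9 stood at 0.124 and 0.117 times Psmb6 in CD38 KO and 0.118 and 0.115 times in WT, and Psmb10 at 0.424 and 0.3998 times Psmb7 in CD38 KO and 0.416 and 0.444 times in WT. The chains of the proteasome activator are Psme1 and Psme2, and the difference between their changes was not tested. Psme1 had 106 and 95.0 FPKM in CD38 KO and 113 and 115 FPKM in WT, and Psme2 had 124 and 109.7 FPKM in CD38 KO and 103 and 104 FPKM in WT. Neither was called (adjusted p = 0.106 and 0.144). Psme1 was at 0.854 and 0.866 times Psme2 in CD38 KO and at 1.10 and 1.11 times in WT. Psme2 shares 28.3% of its 50-base words with Psme2b. Nlrc5, the regulator of class I genes, overlapped, at 5.25 and 3.97 FPKM in CD38 KO and 2.97 and 4.25 FPKM in WT.

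**Figure D4:**
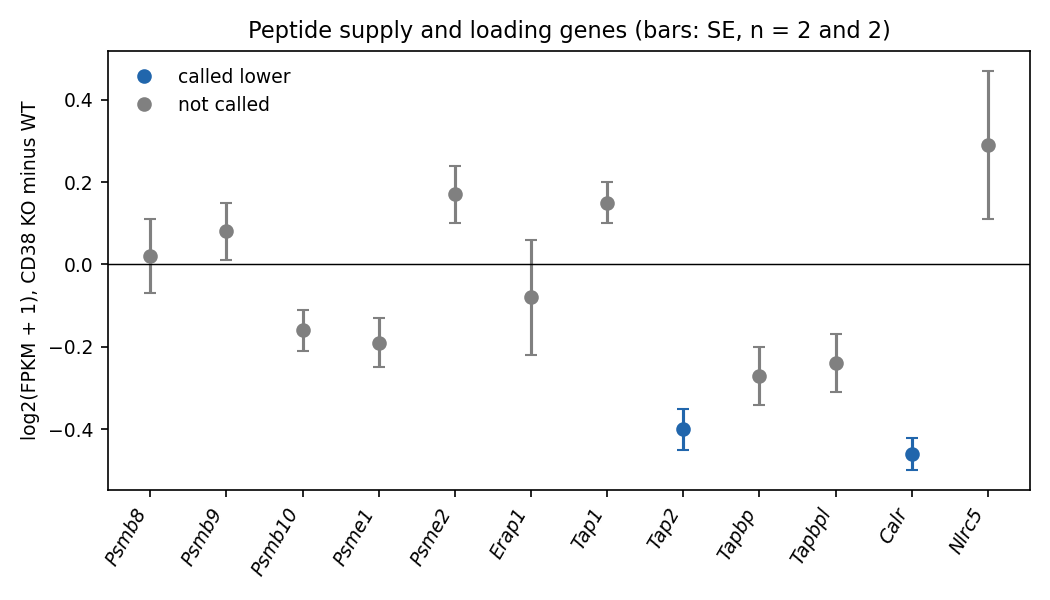
Difference in log2(FPKM + 1), CD38 KO minus WT, of the 12 peptide supply and loading genes, with the standard error (limma, 2 libraries each). Calr at -0.46 and Tap2 at -0.40 were called lower, and the other 10 were not called.

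Along chromosome 17 the H2 genes span 33974659 to 37483552 (GRCm38) and share this stretch with many other genes. These are set apart from the members by symbol only, and Gm11127 among them holds 5.57% of the 50-base words of H2-K2. Of 25 tested members in the span 7 were called higher and 5 lower, 48%, with a median log2 change of 0.08. Of the 85 other tested genes there 6 were higher and 5 lower, 12.9%, and elsewhere on chromosome 17 the share was 13.5%, beside 14.4% over all tested genes. Higher and lower members lie side by side in the H2-Q cluster, where H2-Q7 was higher and H2-Q2 and H2-Q10 lower. H2-Q7 and H2-Q10 each share 14% of their 50-base words with the other, and the part of this sharing in their values was not tested. The largest falls among the called genes between members, picked after their values were seen, were Gm11127, at 0.315 and 0.252 FPKM in CD38 KO and 8.13 and 9.73 FPKM in WT (log2 change -2.95, adjusted p = 0.000137), and Gm10499, at 0.563 and 0.396 FPKM in CD38 KO and 6.35 and 6.57 FPKM in WT (log2 change -2.34, adjusted p = 0.000218). Both lie between H2-T22 and H2-T3 and passed the filter on level through WT only, with CD38 KO means of 0.284 and 0.479 FPKM. Other called genes between members rose by a like amount. Lst1 had 42.95 and 35.96 FPKM in CD38 KO and 6.88 and 5.20 FPKM in WT (log2 change 2.53, adjusted p = 0.000344). Aif1, one of the microglia and macrophage markers, had a log2 change of 2.34 (adjusted p = 0.000153). H2-Ke6, the enzyme with an H2 name, had 25.4 and 26.1 FPKM in CD38 KO, against 32.8 and 32.1 FPKM in WT (log2 change -0.32, adjusted p = 0.0126), a call that ended without any 1 library (adjusted p up to 0.102). It shares 70.5% of its 50-base words with the overlapping transcript Gm20427.

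**Figure D5:**
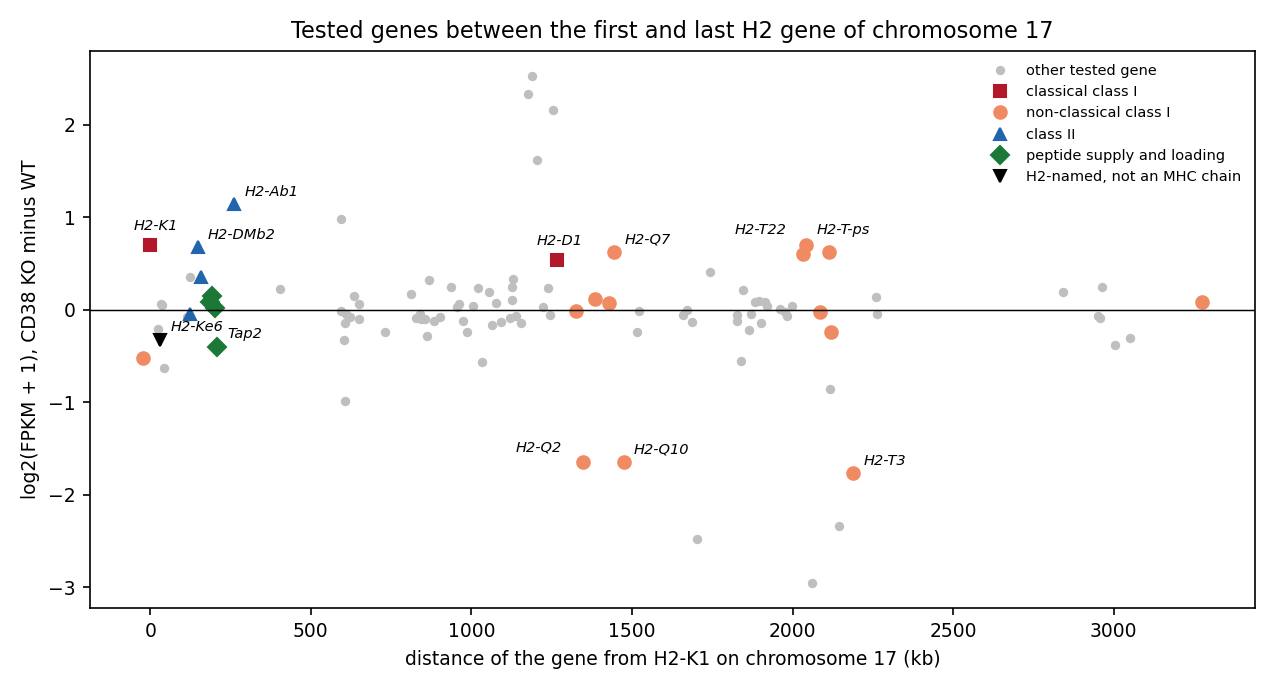
Difference in log2(FPKM + 1), CD38 KO minus WT, of each tested gene between the first and last H2 gene of chromosome 17, by distance from H2-K1 in kb; members are coloured by role and called members named. H2-K1, H2-D1 and H2-Ab1 lie above 0 and H2-T3 (-1.77), H2-Q2 (-1.64) and H2-Q10 (-1.64) below, while most other genes lie near 0.

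A wider list of 55 antigen presentation genes, chosen by role, had 47 tested, 8 called higher and 4 lower, 25.5%, with a median log2 change of -0.01, against 14.4% and 0.00 over all tested genes. The higher ones were led by proteases and a reductase of the compartment where class II peptides are made. Ctss, a cathepsin that cuts the invariant chain in macrophages and dendritic cells, had 39.6 and 34.5 FPKM in CD38 KO, against 6.05 and 6.12 FPKM in WT (log2 change 2.42, adjusted p = 6.8e-05). Ctsl, another cathepsin, had 568 and 541 FPKM in CD38 KO and 365 and 351 FPKM in WT (log2 change 0.63, adjusted p = 0.000933). Both were called in each of the 4 fits without 1 library. Ifi30, the lysosomal thiol reductase, had 27.2 and 23.3 FPKM in CD38 KO and 16.0 and 15.5 FPKM in WT. The transcription factor Irf8 had 2.29 and 2.197 FPKM in CD38 KO and 0.933 and 0.739 FPKM in WT, and reached the level for testing through CD38 KO only. Ctsb, Ctsd, Lgmn and the class I-like gene Mr1 were the other higher ones, at log2 changes of 0.19 to 0.37, and these with Ifi30 and Irf8 kept their call in at most 1 of the 4 fits without 1 library. Beside them stands the microglia and macrophage marker sum of 977 and 871 FPKM in CD38 KO and 189 and 175 FPKM in WT, whose part was not tested.

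The lower ones of this list were Hfe, Pdia6, Irf1 and Sec61a1, at log2 changes of -0.31 to -0.19, none of them called once any 1 library was left out. Hfe, a class I-like regulator of iron uptake, had 30.9 and 30.8 FPKM in CD38 KO and 38.8 and 38.1 FPKM in WT. The general chaperones of class I folding were not called, with Canx at 335 and 333 FPKM in CD38 KO and 331 and 312 FPKM in WT, and Pdia3 at 296 and 303 FPKM in CD38 KO and 313 and 301 FPKM in WT. Of the signalling that induces MHC genes, Ifng was listed at 0 in all libraries. Irf1, which switches on class I genes, was lower at 37.6 and 34.9 FPKM in CD38 KO and 42.2 and 44.7 FPKM in WT (log2 change -0.25, adjusted p = 0.0455). The class II factors Rfx5, Rfxank, Rfxap, Nfya, Nfyb, Nfyc and Creb1 were not called.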

How the data were processed

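Polyadenylated RNA of astrocytes was sequenced as 4 stranded libraries, per the labels' protocols. The build GRCm38 and the tools bcl2fastq 2.17, STAR 2.7.0f and Cufflinks 2.2.1 are listed, without their roles, per the submitters' processing notes. The authors deposited 1 FPKM value per gene and library, per the file headers. Which annotation release they used, and whether libraries were scaled to each other, is not given in the sources used here. Gene positions are from GENCODE M21, which holds 55226 of the 55467 gene IDs and all 60 members.

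Depth was estimated from 17493 genes with 1 transcript over 600 bases, where 91.8% to 92.3% of values under 10 fragments lay within 0.1 of a whole number. FPKM are not counts, so no count test was run. The deposited FPKM were put on a log2 scale after adding 1, and genes whose mean reached 1 FPKM were fitted in R 4.3.3 with limma 3.58.1, genotype as the only term, empirical Bayes with trend; the fit was tested on simulated data. In fits without 1 library, the remaining library of that group is taken to vary as much as the other group. Other steps were run in Python 3.11.15.

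The members, the gene lists and the alternatives were chosen with earlier results of these data known. Every member of at least 1 FPKM on average, or above 0.5 FPKM in a library, is named; of the wider list the 10 called genes of smallest p, with Irf1, Sec61a1 and the uncalled genes named after their values were seen.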

Additional observations from a re-analysis of the deposited data

How the results depend on the processing

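The counts of called members changed with the filter and with fewer libraries. Higher members numbered 7 in the reported fit, 1 with no filter (H2-Ab1), 3 with a filter at 5 FPKM and 1 to 3 in the fits without 1 library. Lower members numbered 6 in the reported fit and 3 to 5 without 1 library. Over all genes 1045 were higher and 830 lower, against 430 and 312 with no filter, and 306 to 458 higher and 225 to 284 lower without 1 library. Other values added before the log, 2 scalings, moderation without trend and robust moderation kept these counts within 1.5 times, and Tapbp was called lower in 2 of these and with a filter at 5 FPKM (adjusted p = 0.0464 to 0.0492). With no filter the calls of H2-K1 (0.0789), H2-D1 (0.107), H2-T22 (0.0627), H2-Q7 (0.13), H2-T-ps (0.0617), H2-DMb2 (0.118) and H2-Q10 (0.0591) ended. That fit tests 26654 genes where the reported one tests 13064.

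No called member changed direction in any alternative. Among members not called, the sign turned without CD38 KO 2 for H2-DMa (0.02), H2-Q1 (0.05), H2-Bl (0.09) and Erap1 (0.14), without WT 2 for H2-DMa (0.06) and H2-Bl (0.07), without CD38 KO 1 for H2-Q6 (-0.05) and Psmb8 (-0.06), and without WT 1 for Psmb8 (-0.08). Over the 4 fits H2-DMa ranged from -0.15 to 0.06, H2-Q1 from -0.07 to 0.05, H2-Q6 from -0.05 to 0.20, H2-Bl from -0.15 to 0.09, Erap1 from -0.30 to 0.14 and Psmb8 from -0.08 to 0.12.

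Same-numbered libraries share only a number. Their deviations from the group means correlated at -0.161 across 13064 genes, so replicate number was not used as a pairing. With the replicate block 4 members were higher and 6 lower, and 610 genes were higher and 427 lower, 7.94% of those tested. With the numbers crossed, an alternative chosen after seeing the data, 9 members were higher and 7 lower, and 1102 genes higher and 859 lower. Depth limits H2-T3, whose CD38 KO libraries held an estimated 3 fragments together at a transcript length of 1200 bases.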
